A study of Homo sapiens with 2 samples.

Results

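The genes described here make cholesterol from acetyl-CoA, sense it, take part in its movement inside the cell, or export it. They are 30 genes named in a list, and a member is any probe set whose platform annotation names 1 of these genes and no other gene. This rule found 66 probe sets of 28 of the 30 genes, among 19775 genes with such a probe set on the array. FDFT1 was not analysed here. CYP51A1 shares both of its probe sets with the gene LRRD1 in the annotation and so fell outside the rule. Of the 28 genes, 26 had at least 1 probe set above the floor of 45.4, the intensity taken as background (the 50th percentile of all values, 0 h and 6 h pooled), and these 26 are called measured. The other 2, ABCA1 and ABCG1, were below the floor throughout.

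RNA came from CL1-0, an established human lung adenocarcinoma line, and was hybridised to Affymetrix expression arrays. The group at 0 h had been given an antibody to FSTL1, a secreted glycoprotein, for 0 h, and the group at 6 h for 6 h. Each group is 1 array, and per the labels both used stably transduced cells selected with puromycin, with the transduced sequence not named. No array of untreated or control-antibody cells at 6 h was used here, so time in culture and the antibody cannot be told apart. With 1 array per time there is no spread between replicates, no test and no replicate check for any value below. The number of arrays limits the precision.

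Cholesterol is built by condensing acetyl-CoA units to mevalonate, which is turned into isoprenoid diphosphates, then squalene, lanosterol and finally cholesterol. The transcription factor SREBP2, encoded by SREBF2, is held in the endoplasmic reticulum membrane with its escort SCAP by the INSIG proteins while sterols are plentiful. When sterols run low the complex moves to the Golgi, SREBP2 is cleaved, and its released part raises transcription of synthesis and uptake genes. The opposite arm uses LXR nuclear receptors, which sense oxysterols and raise export genes such as ABCA1 and ABCG1.

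Most of the measured cholesterol genes were higher on the 6 h array than on the 0 h array, each by a small amount. On the brightest probe set of each gene, 23 of 26 were higher and 3 lower at 6 h, where 54.3% of all 12669 measured genes were higher by any amount. The median log2 difference, 6 h minus 0 h, was 0.26 over the 26 genes and 0.017 over all measured genes. At least 1.2-fold higher were 13 of the 26, beside 9.9% of all measured genes, and at least 1.2-fold lower was 1 (MYLIP), beside 5.29%. None of the 26 reached 1.5-fold on its brightest set, a size that 0.75% of all measured genes reached upwards and 0.182% downwards. The list is described by these counts alone.

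Many of these genes have bright probe sets, so the brighter genes are the closer background. A gene counted as brighter when its mean log2 intensity was 8.64 or more, which is the middle value among genes that passed the floor at 0 h and at 6 h. Of the 18 brighter cholesterol genes, 8 were at least 1.2-fold higher, beside 7.94% of 6033 brighter genes, and 17 of the 18 were higher by any amount, beside 56.9%. Within the 26 genes the difference was only weakly related to brightness (Pearson r = 0.19, Spearman rho = 0.11 across genes, which share both arrays and are not replicates). The 5th and 95th percentiles of the log2 difference over all measured genes were -0.27 and 0.35, and 9 of the 26 lay above the upper one.

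**Figure D1:**
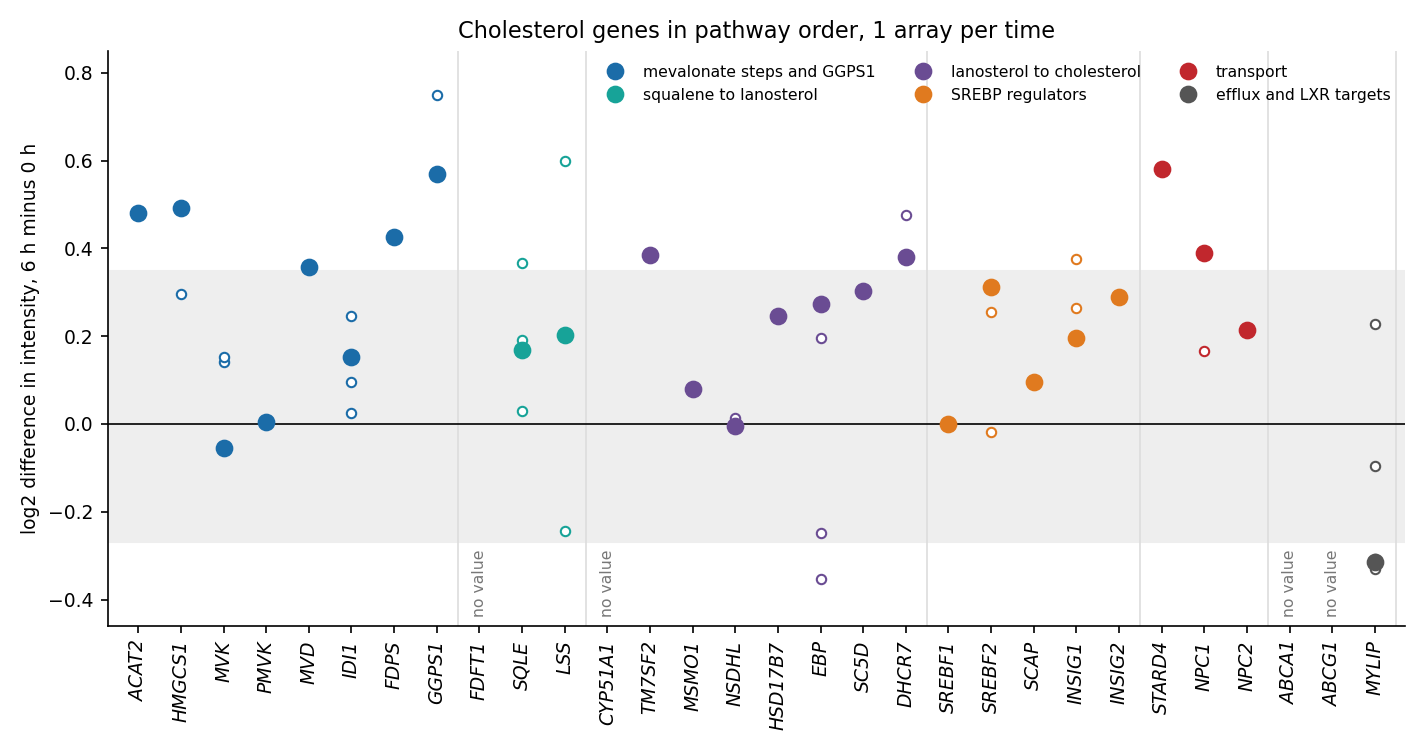
Log2 difference in intensity (6 h minus 0 h) for the 30 genes in pathway order, with colours for their roles. Filled points are the brightest probe set of a gene, open points its other measured sets, and the grey band spans the 5th to 95th percentile of all measured genes (-0.27 to 0.35). Genes marked as having no value are FDFT1, CYP51A1, ABCA1 and ABCG1. Most filled points of the synthesis enzymes and regulators lie above 0, and MYLIP lies below it.

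The opening steps to mevalonate and the isoprenoid diphosphates held the 4 largest differences among the enzymes, those of GGPS1, HMGCS1, ACAT2 and FDPS. Of 8 measured genes 7 were higher, with a median log2 difference of 0.39, and 5 were at least 1.2-fold higher. ACAT2, the cytosolic thiolase that joins acetyl-CoA units, went from an intensity of 2525 at 0 h to 3523 at 6 h on its only probe set, 1.40-fold. HMGCS1, the synthase of the next step, went from 1445 to 2033, 1.41-fold. Both genes were thus higher at 6 h by a like factor, and the dimmer set of HMGCS1 was also higher (611 to 750).

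The mevalonate kinases did not follow them. MVK, which phosphorylates mevalonate, went from 384 to 370 on its brightest set, a log2 difference of -0.05, while its other measured sets went from 195 to 215 and from 108 to 120. PMVK, the next kinase, stood at 690 at 0 h and 691 at 6 h. Neither kinase thus showed a difference of 1.2-fold on any measured set, and the sets of MVK disagreed in direction.

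Further down, MVD, the decarboxylase that yields isopentenyl diphosphate, went from 176 to 226, 1.28-fold. IDI1, the isomerase of that product, went from 5308 to 5903, and its 4 sets had log2 differences of 0.02 to 0.25. FDPS, which makes farnesyl diphosphate, went from 3313 to 4449, 1.34-fold, on its only set. These 3 enzymes were higher at 6 h on every set they have. For IDI1, 3 of the 4 sets carry the _x_ suffix that marks probes able to match other transcripts.

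GGPS1 leaves the sterol route by making geranylgeranyl diphosphate, the lipid used to prenylate small GTPases. It had the largest difference of the enzymes, from 1109 to 1644 or 1.48-fold, and its dimmer set went from 214 to 360, a log2 difference of 0.75. Both sets of GGPS1 were higher at 6 h, and 0.868% of all measured genes had a larger difference than its brightest set. Other enzymes of the isoprenoid branches are described below and did not share this size.

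Promoters of cholesterol synthesis genes are known, as background, to carry binding sites for SREBP together with those of NF-Y, which reads the CCAAT box, and of Sp1, which reads the GC box. The 250 bases before the annotated start are therefore shown for the 4 synthesis genes with the largest differences among those matched in the promoter table, from RefSeq, build GRCh38.p14, read 5′ to 3′ on the strand of the gene. Where a gene has several starts the most upstream one was used. Capitals mark exact matches on either strand to the CCAAT box (CCAAT), to the GC box (GGGCGG) or to an SRE core (TCACNCCA), the element that SREBP reads; on the opposite strand the CCAAT box reads ATTGG and the GC box CCGCCC.
GGPS1, chr1:235326966-235327215, plus strand: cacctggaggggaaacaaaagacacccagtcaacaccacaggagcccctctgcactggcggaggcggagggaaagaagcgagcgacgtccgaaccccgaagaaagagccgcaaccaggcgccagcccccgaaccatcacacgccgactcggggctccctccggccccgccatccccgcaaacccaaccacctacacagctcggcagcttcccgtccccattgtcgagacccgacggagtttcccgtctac
HMGCS1, chr5:43313413-43313662, minus strand: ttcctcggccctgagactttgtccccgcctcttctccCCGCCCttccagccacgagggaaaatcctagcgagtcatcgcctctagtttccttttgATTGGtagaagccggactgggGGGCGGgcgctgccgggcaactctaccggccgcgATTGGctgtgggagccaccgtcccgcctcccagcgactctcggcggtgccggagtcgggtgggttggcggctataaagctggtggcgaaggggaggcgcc
FDPS, chr1:155308616-155308865, plus strand: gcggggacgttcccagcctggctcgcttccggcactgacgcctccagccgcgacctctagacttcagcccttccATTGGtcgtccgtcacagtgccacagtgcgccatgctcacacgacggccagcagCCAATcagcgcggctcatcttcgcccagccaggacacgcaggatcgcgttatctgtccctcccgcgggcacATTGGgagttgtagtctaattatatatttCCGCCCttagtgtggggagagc
TM7SF2, chr11:65111622-65111871, plus strand: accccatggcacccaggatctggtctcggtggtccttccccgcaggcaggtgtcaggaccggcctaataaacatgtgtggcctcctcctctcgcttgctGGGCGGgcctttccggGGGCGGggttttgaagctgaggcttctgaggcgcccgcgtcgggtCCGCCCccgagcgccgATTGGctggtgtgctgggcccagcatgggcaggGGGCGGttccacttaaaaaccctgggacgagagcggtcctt
HMGCS1 has 2 CCAAT boxes and 2 GC boxes in this window. FDPS has 3 CCAAT boxes and 1 GC box, and TM7SF2, a sterol reductase described below, has 1 CCAAT box and 4 GC boxes. The window of GGPS1 holds none of the 3 motifs.

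Of the 30 genes, 26 had a window in the table. A CCAAT box was found for 16 of them (61.5%), beside 34.5% of 15842 protein-coding genes, and a GC box for 23 (88.5%), beside 55.8%. Over the 27305 genes of any kind with a window, the shares were 33.0% and 42.2%. Both boxes together were present for 15 (57.7%), beside 19.4% of protein-coding genes. The SRE core was found for 3 genes, MSMO1, MVK and SREBF2 (11.5%), beside 3.03%, and each of the 3 also held a CCAAT box. In these windows 3 pairs of matches overlapped, each between copies of the same motif. The background shares include genes that were not measured here. Shares over measured or brighter genes alone were not taken, so list and expression level cannot be told apart in them. A match is a string of letters and not a bound site, and no match says only that these letters are not in this window.

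Since so few windows held the SRE core, the stretches around it are shown for all 3 genes, with up to 40 bases on either side, chosen after the matches were seen. The strand and capitals are as above.
MSMO1, chr4:165327473-165327560, plus strand: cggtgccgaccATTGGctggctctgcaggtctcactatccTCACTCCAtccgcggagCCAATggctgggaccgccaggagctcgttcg
MVK, chr12:109573559-109573646, plus strand: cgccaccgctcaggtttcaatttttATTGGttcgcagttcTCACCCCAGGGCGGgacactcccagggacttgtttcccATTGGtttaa
SREBF2, chr22:41832932-41833019, plus strand: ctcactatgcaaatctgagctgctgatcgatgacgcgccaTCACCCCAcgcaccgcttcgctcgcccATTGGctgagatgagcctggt
In SREBF2 the core begins 133 bases before the start and is followed by a CCAAT box read on the opposite strand. In MSMO1 and MVK a CCAAT box stands on either side of it, and in MVK a GC box adjoins it. Of the genes with the core, MVK and MSMO1 had log2 differences of -0.05 and 0.08 and SREBF2 one of 0.31. Measured genes with a window but no exact core in it ran from -0.31 (MYLIP) to 0.58 (STARD4). Any relation of the core to the difference was not tested.

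**Figure D2:**
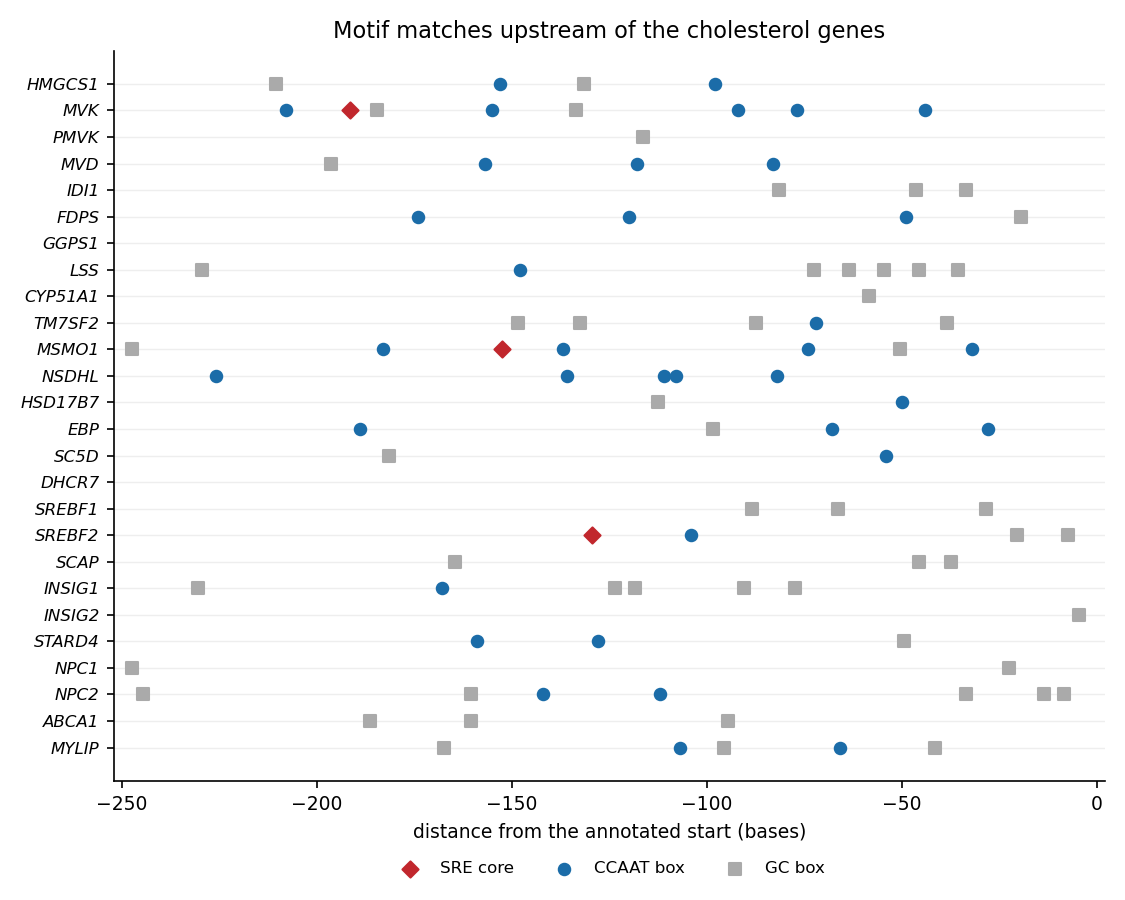
Positions of exact matches to the SRE core, the CCAAT box and the GC box, on either strand, in the 250 bases before the annotated start of the 26 genes with a window, in pathway order. The horizontal axis is the distance in bases from the start. The SRE core is seen in the rows of MVK, MSMO1 and SREBF2, while GGPS1 and DHCR7 have no match.

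Squalene to lanosterol is covered by 2 measured genes. SQLE, the epoxidase that oxidises squalene, went from 2623 to 2947 on its brightest set, 1.12-fold, and its 4 sets had log2 differences of 0.03 to 0.37. LSS, which closes the epoxide to lanosterol, went from 1030 to 1186, 1.15-fold. A dimmer set of LSS went from 112 to 170, and its dimmest set, close to the floor, from 53.8 to 45.5. SQLE was thus higher on every set, and LSS was not.

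From lanosterol to cholesterol, 6 of 7 measured genes were higher, with a median log2 difference of 0.27, and 4 were at least 1.2-fold higher. TM7SF2, a sterol reductase, went from 230 to 300.5, 1.31-fold. DHCR7, the reductase of the last step in one of the routes, went from 838 to 1092, 1.30-fold, and its other set from 445 to 619. SC5D, a sterol desaturase, went from 1229 to 1517, 1.23-fold. These 3 genes were higher at 6 h on each of their measured sets.

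HSD17B7, a ketosteroid reductase of C4 demethylation, went from 1085 to 1287, 1.19-fold, on a single _x_at set. EBP, the sterol isomerase, went from 2190 to 2647, 1.21-fold, and from 1595 to 1828 on the next set. Its 2 dim sets were lower, from 144 to 121 and from 87.7 to 68.7. The median over the 4 sets of EBP was -0.026, so its direction depends on which sets are read.

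The C4 demethylation enzymes MSMO1 and NSDHL differed little. MSMO1, the methylsterol oxidase, went from 2369 to 2503, 1.06-fold. NSDHL, the decarboxylating dehydrogenase of the same complex, went from 814 to 812, and from 519 to 524 on its other set. Neither is near 1.2-fold. The probe sets that name CYP51A1, the lanosterol demethylase, together with LRRD1 went from 1616 to 2043 and from 591 to 624, and cannot be assigned to 1 of these genes.

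Along the route the medians were 0.39 for the mevalonate steps with GGPS1, 0.19 for the squalene steps and 0.27 for the steps after lanosterol. The ranges overlap: -0.05 to 0.57 for the mevalonate steps, 0.17 to 0.20 for the squalene steps and -0.004 to 0.38 after lanosterol. Differences near 0 were seen early (MVK, PMVK) as well as late (NSDHL). With 1 array per time the difference between these segments was not tested.

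**Figure D3:**
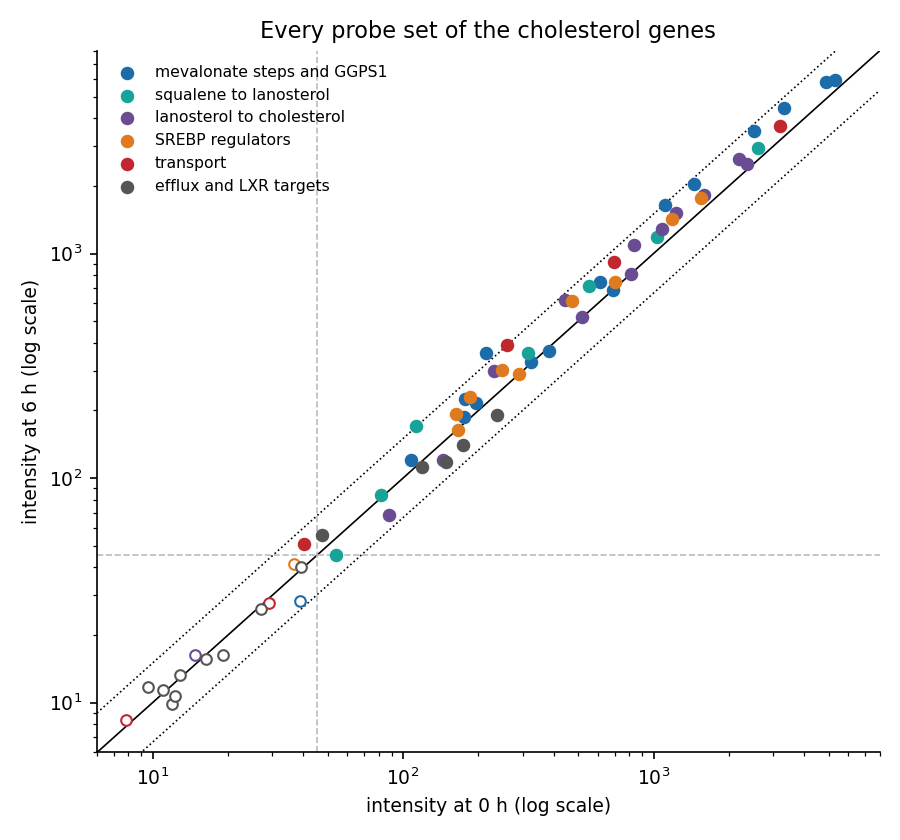
Intensity at 0 h against intensity at 6 h, both on log axes, for all 66 probe sets, coloured by role. Filled points are measured sets, open points sets at or below the floor on both arrays, dashed lines the floor of 45.4, the solid line equality and dotted lines 1.5-fold. Sets above the solid line are higher at 6 h: 42 of the 52 measured sets are, and 2 reach 1.5-fold, 1 of GGPS1 and 1 of LSS.

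Of the regulators, 5 of 5 were higher by any amount, with a median of 0.19. SREBF2, which encodes SREBP2, went from 185 to 230 on its brightest set, 1.24-fold, from 162 to 194 on the next, and from 165 to 163 on the last. SREBF1, which encodes the fatty acid regulators SREBP1a and SREBP1c, stood at 291 on both arrays, a log2 difference of 0.0009. SCAP, the escort, went from 701 to 749, 1.07-fold. Of the 2 factors, SREBF2 was thus at least 1.2-fold higher on its brightest set and SREBF1 was not.

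INSIG1 and INSIG2 encode paralogs that retain SCAP. INSIG1, itself a target of SREBP, went from 1541 to 1764 on its brightest set, 1.14-fold. Its dimmer sets went from 1187 to 1425 and from 473 to 614, so all 3 sets were higher, by log2 differences of 0.19 to 0.38. INSIG2 went from 249 to 304 on its only set, 1.22-fold. Both paralogs were higher by a similar amount.

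The transport genes were all higher. STARD4, a cytosolic carrier that moves sterol between membranes, went from 261 to 390.5 on its only set, a log2 difference of 0.58 that lies just under 1.5-fold, and 0.781% of all measured genes had a larger difference. NPC1, the membrane protein that lets cholesterol leave late endosomes and lysosomes, went from 698 to 915, 1.31-fold, and a dim set went from below the floor (40.1) to 51.0. NPC2, its soluble partner, went from 3192 to 3703, 1.16-fold. STARD4 had the largest difference of the 26 genes.

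Neither export gene was measured, and MYLIP, an LXR target that is no exporter, was lower. ABCA1 and ABCG1, the transporters that pass cholesterol to lipoproteins, had 8 probe sets in all, with intensities of 9.56 to 27.0 at 0 h and 9.82 to 26.1 at 6 h. They were not detectable above the assumed background on either array, and no direction is given. MYLIP, an LXR-induced ubiquitin ligase that directs lipoprotein receptors to degradation, went from 236 to 190 on its brightest set, a log2 difference of -0.31. Of its 5 measured sets 4 were lower, the others going from 173 to 140, from 148 to 118 and from 119 to 112. The dimmest, close to the floor, went from 47.6 to 55.7. Without sets marked _x_at or _s_at only this dim one remained, at 0.23, so the lower value of MYLIP rests on sets of those kinds.

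Set side by side, the 8 regulators and transport genes had a median log2 difference of 0.25, all 8 being higher and 4 at least 1.2-fold higher. The 17 measured synthesis enzymes had a median of 0.27, 15 being higher and 9 at least 1.2-fold higher. With ABCA1 and ABCG1 below the floor, the regulators, transport genes and enzymes could not be set against these export genes. ABCG4, a related transporter outside the 30 genes, is given below with the LXR partners. MYLIP, the 1 measured gene of the list of efflux genes and LXR targets, was at -0.31. Of all measured genes, 3.24% had a lower difference than MYLIP.

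**Figure D4:**
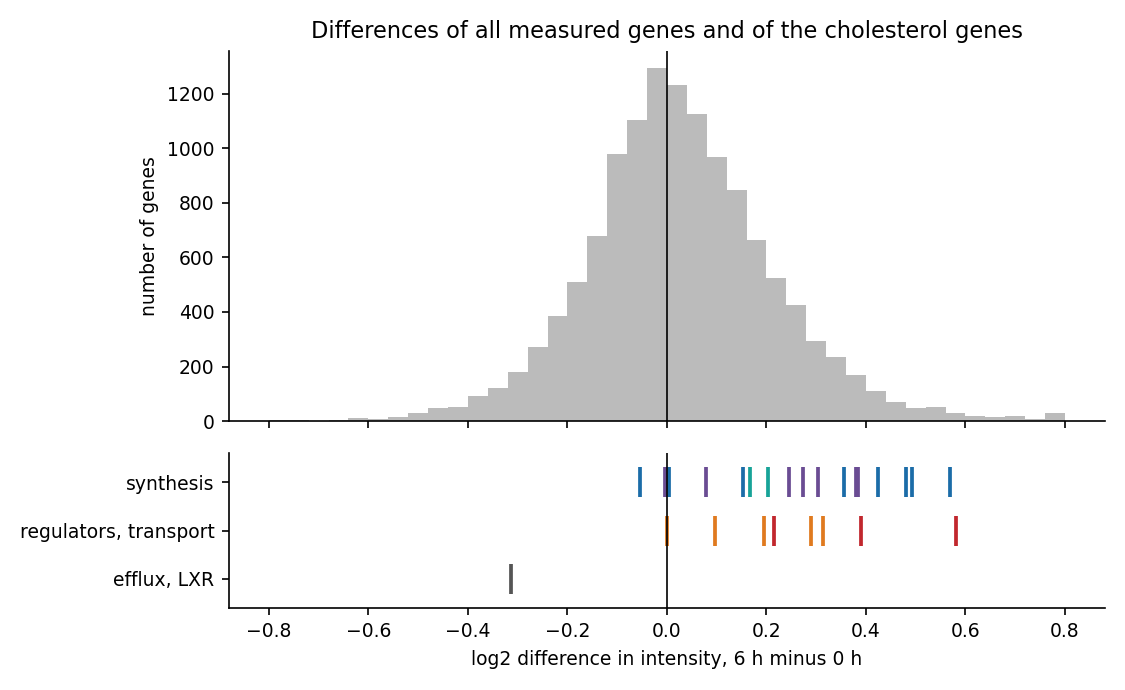
Upper panel, number of genes by log2 difference (6 h minus 0 h) for all 12669 measured genes, with values past 0.8 in either direction placed in the end bins. Lower panel, 1 tick for each measured cholesterol gene by role. Most ticks of the synthesis, regulator and transport genes lie to the right of the peak of all genes, and the MYLIP tick lies to its left.

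Different probe sets of a gene give a rough idea of how far a single set can be trusted. Their log2 differences had a pooled within-gene SD of 0.16 over 6122 genes with several measured sets, and one of 0.21 over the 13 cholesterol genes with several. Probe sets of a gene share both RNA samples and are not replicates. Of the 13, all sets were higher for 7 and none had all sets lower, while 6 were mixed; 30.4% of the 6122 genes had every set higher and 20.9% every set lower. The counts on brightest sets do not use the next brightest set, but the counts over all sets of a gene do. On that next set 12 of the 13 were higher, with a median of 0.26. Over the 6122 genes 55.0% were higher, with a median of 0.022. For NPC1 the next brightest set passed the floor only at 6 h (40.1 to 51.0), so it could only count as higher. Through it NPC1 is among the 13 and the 7, and the set is among the single sets counted next. Over single sets, 42 of 52 were higher by any amount, beside 54.8% of all measured sets, and 2 at least 1.5-fold higher, beside 0.761%. Further, 20 of the 52 were at least 1.2-fold higher, beside 10.9% of all measured sets, and 4 at least 1.2-fold lower, beside 5.68%.

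Other genes of the pathway, from lists that hold none of the 30 genes, had a smaller median. Over 4 such lists 29 of 42 measured genes were higher, beside 54.3% of all measured genes, with a median of 0.05. Of the 42, 4 were at least 1.2-fold higher, beside 9.9%, and 2 at least 1.2-fold lower, beside 5.29%. The same shares are the background for each of the 4 lists. In the list on SREBP processing and sterol-regulated degradation, 6 of 9 were higher with a median of 0.014. MBTPS1, the protease that makes the opening cut in SREBP, went from 491 to 555. ERLIN2, an endoplasmic reticulum scaffold of sterol-regulated degradation, went from 1615 to 1414, and ERLIN1 from 1638 to 1537. None of the 9 was past 1.2-fold on its brightest set. The lowest of the 4 sets of UBE2G2, named after its value was seen, was at -0.32.

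Among sterol transport, esterification and scaffold genes 14 of 16 were higher and 3 at least 1.2-fold higher, at a median of 0.13. ERG28, which tethers the C4 demethylation enzymes, went from 1380 to 1719, and both of its measured sets were higher (log2 0.32 and 0.39). SCARB2, a lysosomal membrane protein, went from 1802 to 2251, but its 4 sets ran from -0.51 to 0.32. STARD3, a late endosomal sterol carrier, went from 242 to 292. GRAMD1B, which carries cholesterol from the plasma membrane, was lower, from 143 to 111.

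Of the genes of LXR and its partners, 5 of 6 measured were higher, and their median was 0.11. SMPDL3A, an LXR-induced phosphodiesterase, went from 69.2 to 98.0 on a dim set, and RXRA, the partner receptor, from 693 to 819, with its other set at -0.27. LPCAT3, a phospholipid acyltransferase induced by LXR, went from 102 to 114. ABCG4, a transporter related to ABCG1, went from 66.1 to 68.8 on its only set, a log2 difference of 0.06. SMPDL3A and LPCAT3 were thus not lower on their brightest sets, as MYLIP was on its own. The contrast was not tested, and the lower value of MYLIP rests on _x_at and _s_at sets. Enzymes of the isoprenoid branches numbered 11, of which 4 were higher, at a median of -0.02 and with 0 at least 1.2-fold higher and 1 at least 1.2-fold lower, beside GGPS1 at 0.57. The lower one was FNTB, a farnesyltransferase subunit, which went from 55.5 to below the floor (39.9) and was named after its value was seen. PDSS1, which makes the ubiquinone tail, went from 959 to 847, COQ2 from 855 to 771 and RABGGTA, a Rab prenyltransferase subunit, from 225 to 205.

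In a list of fatty acid synthesis genes and shared SREBP targets, 11 of 11 measured genes were higher on their brightest sets. Of all measured genes 54.3% were higher. The median of the list was 0.22, and 3 of its genes were at least 1.2-fold higher, beside 9.9%. These were ACSS2 (0.32), TMEM135 (0.31) and FASN (0.30 on its brightest set). TMEM135 is in the list but is not an enzyme of fatty acid synthesis. ACLY was at 0.24, with its measured sets at 0.24 to 0.32. The lowest set was lower at 6 h for 5 of the 11, listed here after seeing the values: ACACA (-0.26), SCD (-0.22), ELOVL5 (-0.28), FASN (-0.07) and LPIN1 (-0.007). No test of the difference between this list and the cholesterol genes could be made with 1 array per time.

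**Figure D5:**
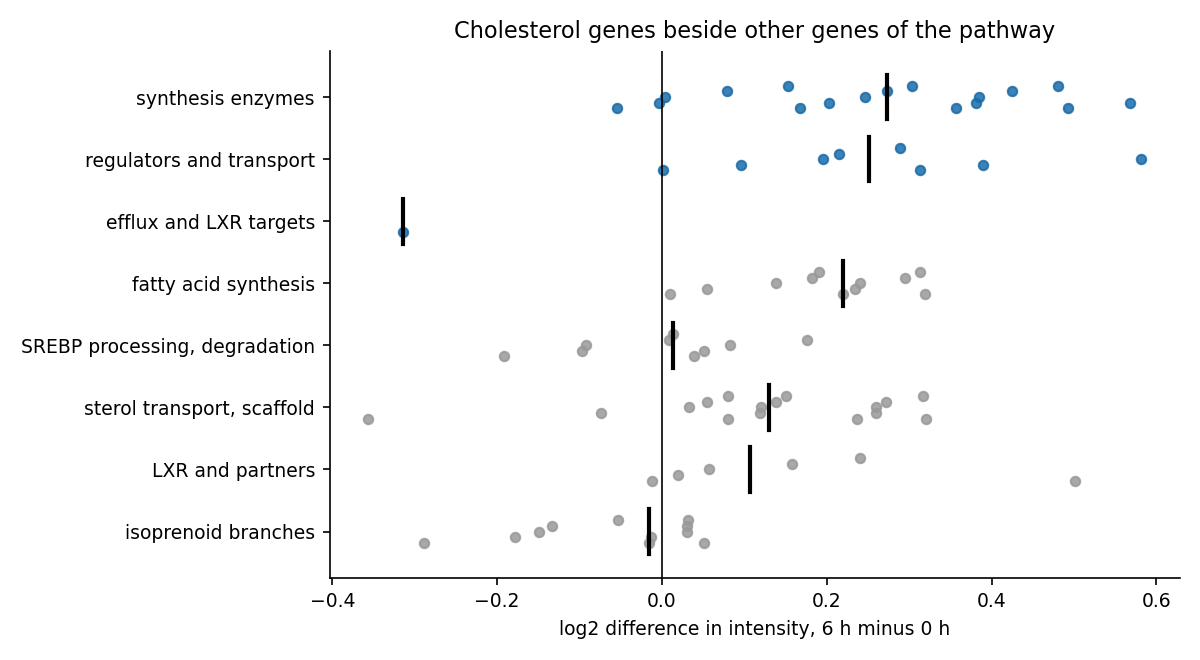
Log2 difference (6 h minus 0 h) of each measured gene in 8 lists, with the list median as a vertical bar. Blue points are the cholesterol genes by role and grey points other genes of the pathway. The synthesis enzymes (median 0.27) and the regulators with transport genes (0.25) lie to the right of the isoprenoid branches (-0.02).

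The arrays had median intensities of 45.8 at 0 h and 44.9 at 6 h, with 50.2% and 49.8% of probe sets above the floor. The labels call the cells alveolar type II. Of 8 markers of that type with a probe set, 5 were above the floor on each array, and SFTPD, LAMP3 and SLC34A2 were below it on both. Summed over all 8, those below the floor included, the brightest intensities were 574 at 0 h and 616 at 6 h. Over all genes 12669 of 19775 were measured, so such a count does not by itself identify the cells. Of 5 general epithelial markers 2 were above the floor, and EPCAM, CDH1 and KRT19 were not. Fibroblast markers above the floor numbered 2 of 6 at 0 h and 1 at 6 h, leukocyte markers 0 of 4 and endothelial markers 1 of 5 on both arrays. The summed intensities of all 6 fibroblast markers were 362 at 0 h and 340 at 6 h. No marker was listed at 0, and their part in the differences above was not tested.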

How the data were processed

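CL1-0 RNA was hybridised to 2 arrays, 1 at 0 h and 1 at 6 h of the antibody. The authors deposited probe set intensity on a linear scale, summarised with MAS5 per the submitters' processing notes; its version and any scaling are not given in the sources used here. A scaling difference between the arrays would move all genes together.

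Probe sets were named through the platform annotation, with symbols updated by Entrez identifier (41037 sets matched). Sets with several genes (1801) or none (11777) and 62 control sets were not used. Values under 45.4, the 50th percentile of both arrays, were set to that floor, and log2 differences were taken as 6 h minus 0 h. A gene was represented by its brightest measured set. A gene at the floor on both arrays was not measured. No test was run, since each group has 1 array. The members and lists were chosen with earlier results of these data known, as were the folds of 1.2 and 1.5. All 30 listed genes were to be named, with, of each other list, up to 4 genes having the largest absolute difference among those above the floor on both arrays. Alternatives were other floors (40th and 60th percentile), no floor with log2(value + 16), median centring, quantile normalization, a loess curve (span 0.3), the median of a gene's sets, and leaving out _x_at and _s_at sets. The steps were tested on simulated data. The differences planted there were larger than most of those of the cholesterol genes and lay in bright genes only. Smaller differences and dim sets were therefore not put to that test. A planned comparison of the INSIG1 and INSIG2 proteins was not made. Python 3.11.15 with pandas 2.3.3 and statsmodels 0.14.6 was used.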

Additional observations from a re-analysis of the deposited data

How the results depend on the processing

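The median over the cholesterol genes lay between 0.20 and 0.26 under the 8 alternatives, that of the synthesis enzymes between 0.18 and 0.27, and that of the regulators and transport genes between 0.22 and 0.26. The number of genes higher at 6 h lay between 17 (of 19 measured, without _x_at and _s_at probe sets) and 24. With quantile normalization 9 of 26 were at least 1.2-fold higher, beside 7.5% of all measured genes, and without _x_at and _s_at sets 7 of 19, beside 11.3%. The list of efflux genes and LXR targets, in which MYLIP alone was measured, at -0.31, was at 0.23 without _x_at and _s_at sets, since only a dim set near the floor is left there. It was at -0.12 with no floor and no filter, where ABCA1 (-0.12) and ABCG1 (-0.03) enter as dim values. EBP was at -0.026 with the median of its sets. Of 26 genes 20 kept their sign under each alternative run, and the other 6 were EBP, MVK, MYLIP, NSDHL, PMVK and SREBF1. Among the 20, ACAT2, DHCR7, HSD17B7, MVD, SC5D and TM7SF2 were not measured without _x_at and _s_at sets. Their sign was therefore not put to that alternative. No paired analysis was possible because each group has 1 array. Dim sets are the least certain, and a signal near the floor limits the 1 MYLIP set that was higher, the dimmest set of LSS and the dim set of NPC1. Differences between cultures, or of handling, cannot be told apart from the antibody.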
